A study of Saccharomyces cerevisiae with 6 samples.

Results

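The 33 genes described here encode enzymes of the tricarboxylic acid (TCA) cycle, the glyoxylate cycle and gluconeogenesis in Saccharomyces cerevisiae, together with the pyruvate dehydrogenase complex that feeds the TCA cycle and a pair of their transcriptional activators. They were chosen by gene symbol, as the probes that the platform annotation assigns to each name, and each of the 33 had a single probe on the array. They were 33 of 5197 named genes, and the comparison was fitted over 6248 features, which include 1051 unnamed probes. RNA was profiled on 6 Agilent single-colour arrays, 3 cultures of 59A wild type and 3 of 59A PDR8-S288c, to ask how the PDR8 allele alters expression during a wine fermentation. PDR8 encodes a zinc cluster transcription factor of the drug resistance network. 59A is a haploid MATa ho derivative of the industrial wine strain EC1118. In 59A PDR8-S288c the resident PDR8 was deleted with the hphMX4 cassette and then replaced by the allele of the laboratory strain S288c, which carried loxP-kanMX4-loxP in its terminator, so effects of the allele and of the inserted cassette cannot be told apart. How many clones were used is not given in the sources used here. Both strains fermented a synthetic grape must (SM425) containing glucose and fructose, p-aminobenzoic acid and iron chloride under an airlock, with a reduced supply of anaerobic growth factors, and cells were taken at 66 g/l of released CO2, that is at 70% of fermentation progress, in late stationary phase. The labels call the cultures of a strain biological replicates, and p-values measure the spread between these cultures.

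In yeast mitochondria the TCA cycle oxidises acetyl-CoA through citrate, isocitrate, 2-oxoglutarate, succinate and malate back to oxaloacetate. During fermentation with little oxygen it is known to run mainly as separate oxidative and reductive branches that supply precursors for amino acids and release succinate. The glyoxylate cycle bypasses the decarboxylating steps, and with gluconeogenesis it lets cells build sugars from ethanol or acetate. Genes of both routes are repressed by glucose, and several steps are carried by isoenzymes in the mitochondrion, the cytosol and the peroxisome.

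All values are log2 units of normalized spot-median signal, a scale on which the background lay at 5.3 and saturation at 16. The array medians were 8.06 to 8.07. Wild type replicate 3 lacked a value for 2066 probes (32.9%), 14 of the 33 genes among them, so those genes have 2 wild type values instead of 3. The strain labels were checked on PDR8, the replaced gene, and on QDR2. The study reported both as changed in its own comparison of these strains, so this check repeats that result. QDR2, which encodes a multidrug transporter, had signals of 7.57 to 7.68 in wild type, against 9.71 to 9.96 in 59A PDR8-S288c, and the PDR8 probe read 7.21 and 7.26 in wild type, against 6.70 to 6.77 in 59A PDR8-S288c. The 6 MATa marker genes had signals between 6.53 and 11.46, and the dimmest of them, ASG7, lay at 6.53 to 6.67. Of the 4 MATalpha markers, SAG1 lay at 7.08 to 7.33, above ASG7. The other 3 stayed at or below 6.00, near background. The small number of arrays limits the precision of every comparison. The 59A PDR8-S288c arrays lay at positions 5, 6 and 7 of the slide, and the wild type arrays at positions 1, 2 and 8. Effects of strain and of position on the slide therefore cannot be fully told apart.

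None of the 33 genes differed between the strains at an adjusted p under 0.05 in limma, where 1.54% of all features passed (0.512% higher and 1.02% lower in 59A PDR8-S288c). At an unadjusted p under 0.05 there were 2 of 33 genes, PDB1 and ACS1, against 18.1% of all features, both above wild type (9.99% of all features; 8.1% were below). At the stricter adjusted p under 0.01 the count was 0 of 33, against 0.048% of all features. The differences of the 33 genes, given throughout as 59A PDR8-S288c minus wild type, ran from -0.19 to 0.19 with a median of 0.03, and 20 were above 0 and 13 below. Over all features the median was 0.01 and 53.0% were above 0. A difference of more than 0.2 in either direction was found for 0 of the 33 genes and for 11.5% of all features. RNA was taken from whole cultures, so fewer cells that express a gene and less of its RNA per cell cannot be told apart.

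The precision of these differences can be read from their 95% confidence intervals. The intervals of all 33 genes lay within 1.5-fold in either direction, as did those of 96.1% of all features, and 26 of 33 (78.8%) lay within 1.25-fold, against 81.0% of all features. The highest upper limit belonged to CIT2, at 0.44 or 1.36-fold. The lowest lower limit belonged to MAE1, at -0.44, a 1.36-fold decrease.

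**Figure D1:**
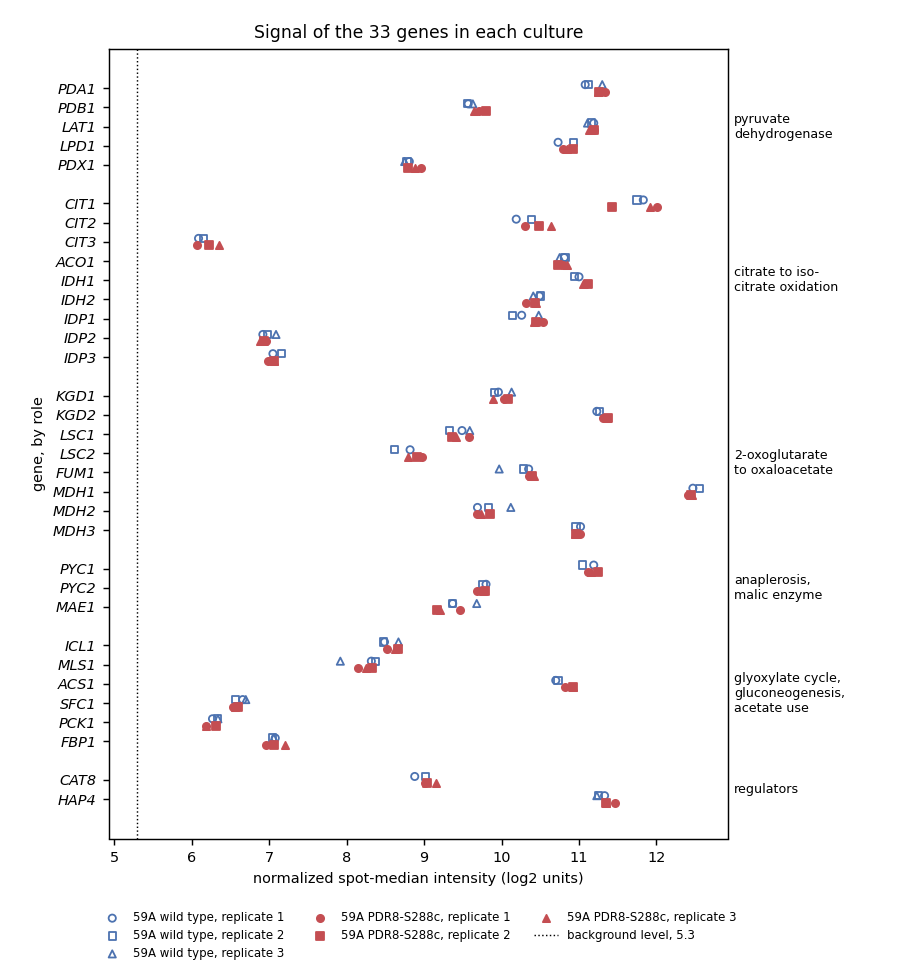
Normalized spot-median signal (log2 units, x axis) of each of the 33 genes, ordered by role, with 1 symbol per culture (open blue, 59A wild type; filled red, 59A PDR8-S288c) and a dotted line at the background of 5.3. Within each gene the symbols of both strains lie close together, and the genes span signals from 6.07 for CIT3 to 12.56 for MDH1, although signals of different probes are not a comparison of RNA amounts.

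The pyruvate dehydrogenase complex converts pyruvate to acetyl-CoA in the mitochondrion. All 5 of its genes had a difference above 0, with a median of 0.10, and none passed the test. PDB1 (YBR221C), the beta subunit of the pyruvate-oxidising component, had signals of 9.57, 9.56 and 9.63 in the wild type cultures and 9.71, 9.80 and 9.64 in the 59A PDR8-S288c cultures. The lowest 59A PDR8-S288c culture lay just above the highest wild type culture, so the groups did not overlap. The difference was 0.13 ± 0.05 (SE; 95% interval 0.00 to 0.26), with an adjusted p of 0.263 from limma. PDA1, the alpha subunit of the same component, had signals of 11.08, 11.12 and 11.30 in wild type, against 11.33, 11.26 and 11.24 in 59A PDR8-S288c. Its difference was 0.11 ± 0.07 (adjusted p = 0.433 from limma), and wild type replicate 3 lay among the 59A PDR8-S288c values. Without that culture the difference of PDA1 was 0.17, and without wild type replicate 1 it was 0.06.

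LAT1, the acetyltransferase core of the complex, was at 11.11 to 11.19 in wild type, against 11.13 to 11.19 in 59A PDR8-S288c, a difference of 0.02. PDX1, which anchors the dehydrogenase LPD1 in the complex, was at 8.75 to 8.81 in wild type, against 8.79 to 8.96 in 59A PDR8-S288c. LPD1 itself, which also serves 2-oxoglutarate dehydrogenase and glycine decarboxylase, read 10.73 and 10.93 in the 2 wild type cultures measured and 10.80, 10.92 and 10.84 in 59A PDR8-S288c. For LPD1 the wild type pair spanned all of the 59A PDR8-S288c values.

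Among the 9 genes from citrate synthesis to isocitrate oxidation, 5 differences were above 0 and 4 below, with a median of 0.00. CIT1, the mitochondrial citrate synthase, read 11.83 and 11.75 in wild type, against 12.01, 11.42 and 11.91 in 59A PDR8-S288c. Replicate 2 of 59A PDR8-S288c was the lowest of the 5 cultures and the other 2 were the highest, so the strain means differed by only -0.01 while the interval ran from -0.41 to 0.39. Its spread within strains, an SD of 0.26, was larger than that of 97.9% of all features. Without 59A PDR8-S288c replicate 2 the difference of CIT1 was 0.17 (adjusted p = 0.396 from limma).

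CIT2, the peroxisomal citrate synthase and a classical target of retrograde signalling from mitochondria to the nucleus, read 10.19 and 10.39 in wild type, against 10.30, 10.49 and 10.64 in 59A PDR8-S288c. The strains overlapped, and the difference of 0.19 ± 0.11 had an adjusted p of 0.417 from limma. It was 0.09 without wild type replicate 1, 0.10 without 59A PDR8-S288c replicate 3 and 0.28 without wild type replicate 2. CIT3, a minor mitochondrial citrate and methylcitrate synthase, read 6.09 and 6.15 in wild type, against 6.07, 6.23 and 6.35 in 59A PDR8-S288c. In both strains its mean lay within 1 log2 unit of background, where 16.5% of all features lay, so a difference in its RNA may not be visible on this array. ACO1, the aconitase that turns citrate into isocitrate, had nearly the same signal in every culture, from 10.73 to 10.85. Its difference was 0.00, with an interval of -0.11 to 0.11.

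IDH1 and IDH2 encode both subunits of the NAD-dependent isocitrate dehydrogenase of the mitochondrion. IDH1 read 11.00 and 10.94 in wild type, against 11.09, 11.12 and 11.05 in 59A PDR8-S288c. All of its 59A PDR8-S288c values lay above the wild type values, with a difference of 0.12 ± 0.05 and an adjusted p of 0.286 from limma. IDH2 read 10.49, 10.50 and 10.41 in wild type, against 10.31, 10.43 and 10.45 in 59A PDR8-S288c. Its strains overlapped, and its difference of -0.07 (adjusted p = 0.531 from limma) had the opposite sign to that of its partner subunit.

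The NADP-dependent isocitrate dehydrogenases are encoded by IDP1 (mitochondrial), IDP2 (cytosolic) and IDP3 (peroxisomal). IDP1 read 10.26, 10.14 and 10.48 in wild type, against 10.54, 10.44 and 10.42 in 59A PDR8-S288c. Wild type replicate 3 fell among the 59A PDR8-S288c values and the other wild type cultures lay below them. The difference was 0.17 ± 0.09 (adjusted p = 0.33 from limma), and it was 0.27 with an adjusted p of 0.0794 without wild type replicate 3 and 0.10 without wild type replicate 2. IDP2 lay at 6.92 to 7.09 in wild type, against 6.88 to 6.96 in 59A PDR8-S288c. IDP3 lay at 7.05 and 7.16 in wild type, against 6.98 to 7.07 in 59A PDR8-S288c. Both had a difference of -0.07, and in both the strains overlapped.

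Of the 8 genes from 2-oxoglutarate to oxaloacetate, 3 differences were above 0 and 5 below, with a median of -0.01. KGD1 and KGD2 encode the decarboxylating and the succinyl-transferring components of 2-oxoglutarate dehydrogenase. KGD1 lay at 9.91 to 10.13 in wild type, against 9.89 to 10.09 in 59A PDR8-S288c, a difference of 0.00. KGD2 read 11.23 and 11.26 in wild type, against 11.31, 11.37 and 11.36 in 59A PDR8-S288c, so that its strains did not overlap. Its difference was 0.10 ± 0.05, with an adjusted p of 0.34 from limma.

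LSC1 and LSC2 encode the alpha and beta subunits of succinyl-CoA ligase. LSC1 lay at 9.33 to 9.59 in wild type, against 9.36 to 9.58 in 59A PDR8-S288c, with a difference of -0.02. LSC2 read 8.82 and 8.62 in wild type, against 8.97, 8.91 and 8.79 in 59A PDR8-S288c, with a difference of 0.17 ± 0.08 (adjusted p = 0.325 from limma). For LSC2 a wild type culture lay just above the lowest 59A PDR8-S288c culture, and the difference was 0.08 without wild type replicate 2 and 0.27 without wild type replicate 1.

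FUM1, the fumarase of the cycle, shared with CIT2 the highest difference of the 33 genes. It read 10.35, 10.28 and 9.97 in wild type, against 10.36, 10.39 and 10.42 in 59A PDR8-S288c. The groups did not overlap, but wild type replicate 1 and 59A PDR8-S288c replicate 1 were 10.35 and 10.36, and wild type replicate 3 lay well below all others. The difference of 0.19 ± 0.09 (adjusted p = 0.335 from limma) was 0.08 without wild type replicate 3.

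The malate dehydrogenases interconvert malate and oxaloacetate in the mitochondrion (MDH1), the cytosol (MDH2) and the peroxisome (MDH3). MDH1 had the brightest signal of the 33 genes, 12.47 and 12.56 in wild type, against 12.41, 12.44 and 12.46 in 59A PDR8-S288c. It was the single gene whose 59A PDR8-S288c values all lay below the wild type values, by 0.08 on average (difference -0.08, adjusted p = 0.475 from limma). MDH2 read 9.69, 9.83 and 10.12 in wild type, against 9.68, 9.85 and 9.73 in 59A PDR8-S288c. Wild type replicate 3 alone stood above the rest, and the difference went from -0.12 to -0.01 when it was left out and to -0.22 without wild type replicate 1. MDH3 stayed between 10.95 and 11.02 in all 5 cultures measured.

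Pyruvate carboxylase, encoded by PYC1 and PYC2, replenishes oxaloacetate and starts gluconeogenesis from pyruvate. PYC1 read 11.19 and 11.05 in wild type, against 11.11, 11.25 and 11.16 in 59A PDR8-S288c, and PYC2 lay between 9.69 and 9.80 in every culture measured. Their differences were 0.05 and -0.03. PYC1 and PYC2, like CIT1 and CIT2, are similar in sequence, and how far their probes hybridize with the RNA of the other gene was not examined.

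MAE1, the mitochondrial malic enzyme that forms pyruvate from malate, had the lowest difference of the 33 genes. It read 9.37, 9.37 and 9.68 in wild type, against 9.47, 9.17 and 9.21 in 59A PDR8-S288c. Replicate 1 of 59A PDR8-S288c lay inside the wild type range and the other 2 below it. The difference was -0.19 ± 0.11 (adjusted p = 0.41 from limma), and -0.08 without wild type replicate 3.

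**Figure D2:**
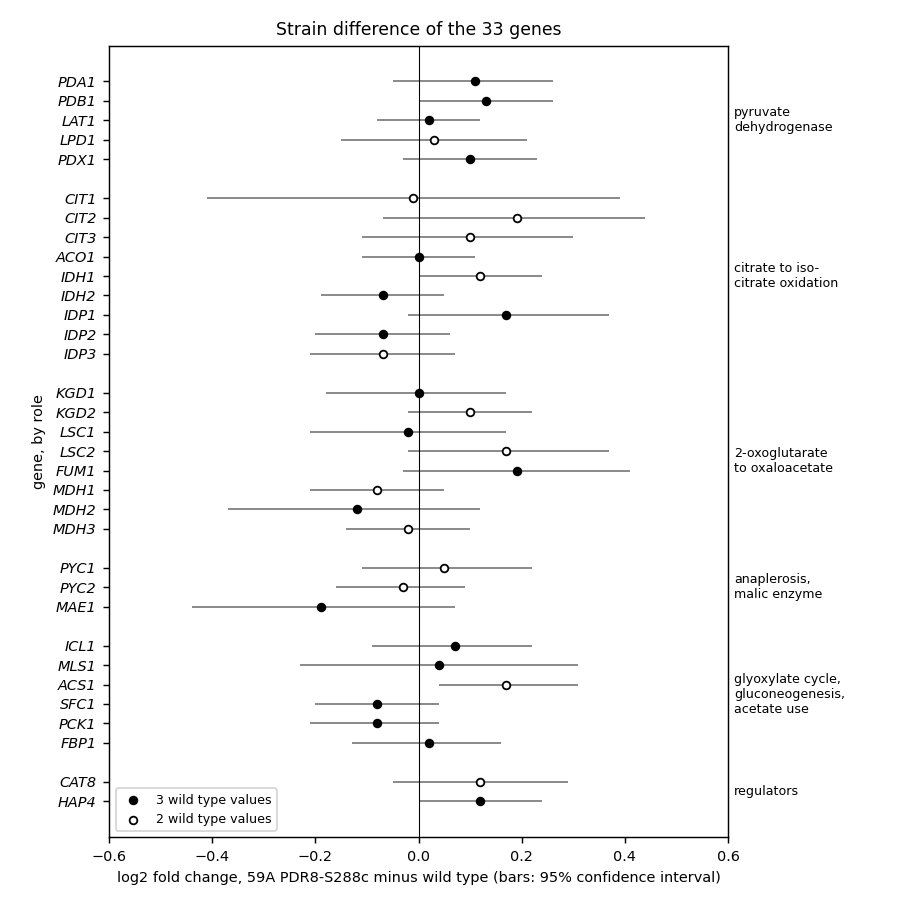
Difference between 59A PDR8-S288c and wild type for each of the 33 genes (log2 fold change, x axis), with bars for the 95% confidence interval from limma, filled points for genes with 3 wild type values and open points for genes with 2. The points lie between -0.19 (MAE1) and 0.19 (CIT2, FUM1), and the interval of ACS1 runs from 0.04 to 0.31.

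Of the 6 genes of the glyoxylate cycle, gluconeogenesis and acetate use, 4 had a difference above 0 and 2 below, with a median of 0.03. ACS1 (YAL054C), the acetyl-CoA synthetase that activates acetate and is repressed by glucose, had the lowest adjusted p of the 33 genes. It read 10.70 and 10.73 in wild type, against 10.82, 10.92 and 10.92 in 59A PDR8-S288c. All 3 values of 59A PDR8-S288c lay above both wild type values, with a difference of 0.17 ± 0.06 (95% interval 0.04 to 0.31), an unadjusted p of 0.0184 and an adjusted p of 0.177 from limma. Its difference stayed between 0.16 and 0.21 under every alternative tried, with an adjusted p of 0.0931 to 0.541.

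ICL1, the isocitrate lyase that opens the glyoxylate cycle, read 8.49, 8.48 and 8.67 in wild type, against 8.52, 8.67 and 8.63 in 59A PDR8-S288c. MLS1, the malate synthase that closes it, read 8.32, 8.37 and 7.92 in wild type, against 8.15, 8.33 and 8.25 in 59A PDR8-S288c. For both genes the strains overlapped, and the differences were 0.07 and 0.04. In wild type replicate 3 ICL1 was at its highest wild type value and MLS1 at its lowest of all cultures. The difference of MLS1 was -0.10 without that culture.

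SFC1, the carrier that exchanges cytosolic succinate for mitochondrial fumarate, lay at 6.57 to 6.70 in wild type, against 6.54 to 6.60 in 59A PDR8-S288c. PCK1, the phosphoenolpyruvate carboxykinase that commits oxaloacetate to gluconeogenesis, lay at 6.27 to 6.34 in wild type, against 6.18 to 6.32 in 59A PDR8-S288c. Both differences were -0.08. The mean of PCK1 was within 1 log2 unit of background in 59A PDR8-S288c and just above that limit in wild type. FBP1, the fructose-bisphosphatase that follows in the route to glucose, lay at 7.04 to 7.08 in wild type, against 6.96 to 7.20 in 59A PDR8-S288c.

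Both activators among the 33 genes had a difference of 0.12. HAP4, the regulatory subunit of the CCAAT-binding complex that activates respiratory genes, read 11.33, 11.25 and 11.23 in wild type, against 11.46, 11.35 and 11.35 in 59A PDR8-S288c. Its strains did not overlap (standard error 0.05, interval 0.00 to 0.24, adjusted p = 0.289 from limma). CAT8, the zinc cluster activator of gluconeogenic and glyoxylate cycle genes, read 8.88 and 9.02 in wild type, against 9.01, 9.04 and 9.16 in 59A PDR8-S288c. A wild type value lay between those of 59A PDR8-S288c, and the adjusted p was 0.424 from limma. The difference of CAT8 was 0.05 without wild type replicate 1 and 0.19 without wild type replicate 2.

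Separation of the strains without overlap was counted for genes with equal numbers of values. Among the 19 genes with all 6 values, 3 did not overlap (PDB1, FUM1 and HAP4, all above wild type), beside 24.6% of all features with 6 values. Among the 14 genes with 5 values, 4 did not overlap (IDH1, KGD2 and ACS1 above wild type and MDH1 below), beside 35.0% of all features with 5 values.

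**Figure D3:**
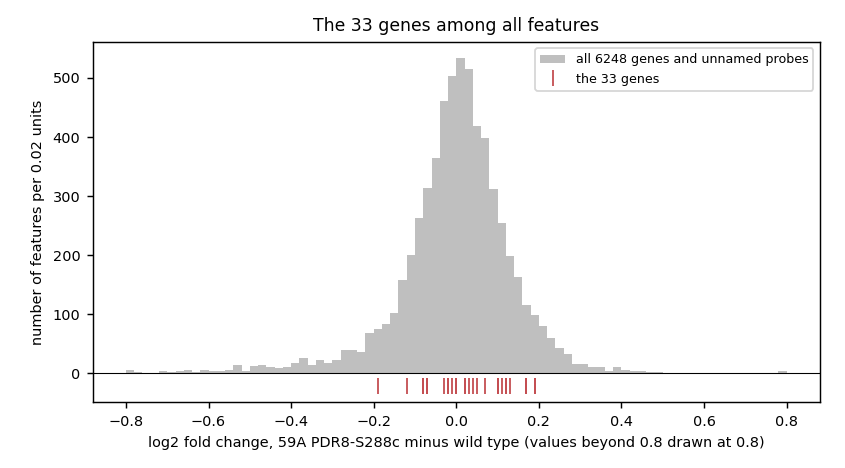
Number of all 6248 features (grey bars, per 0.02 log2 units; values beyond 0.8 drawn at 0.8) by difference between 59A PDR8-S288c and wild type, with the 33 genes as red ticks below. The ticks run from -0.19 to 0.19, inside the central part of the distribution.

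The spread between cultures of a strain was of the same size as these differences. The median within-strain SD of the 33 genes was 0.08, against 0.07 for all features, and the median size of their differences was 0.08, also against 0.07. For 6 of 33 genes the SD exceeded that of 90% of all features: CIT1, MLS1, MAE1, MDH2, CIT2 and FUM1. Wild type replicate 3 was the highest or lowest of the 6 cultures for 12 of the 19 genes measured on it (63.2%), and for 58.2% of all 4190 features measured on every array. It was the highest for 7 of them, IDP2, KGD1, LSC1, MDH2, MAE1, SFC1 and PCK1, and the lowest for 5, LAT1, PDX1, FUM1, MLS1 and HAP4. The median signal of these 19 genes was 9.57, 9.56 and 9.68 in the wild type cultures and 9.68, 9.80 and 9.64 in the 59A PDR8-S288c cultures. Without wild type replicate 3, 5 of the 33 genes had an unadjusted p under 0.05, beside 18.4% of all features in the same fit, and none an adjusted p under 0.05 in limma. Whether its missing probes and its more frequent extreme values have a common source was not tested.

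**Figure D4:**
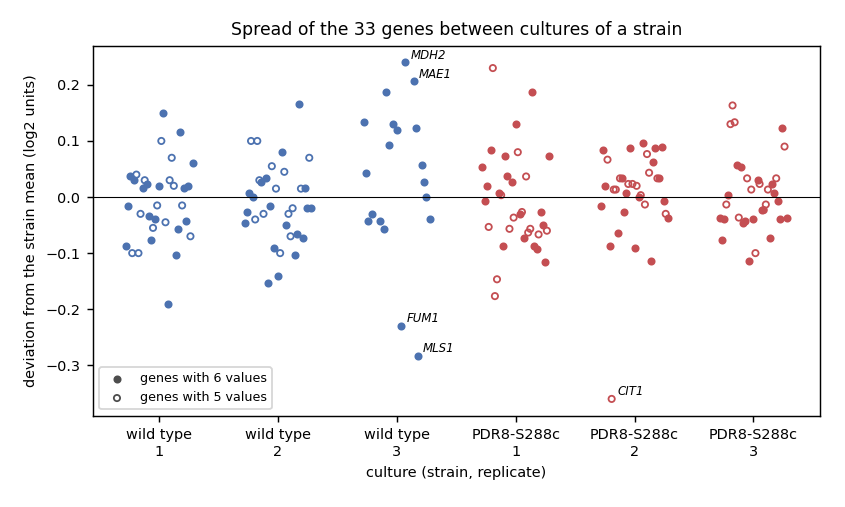
Deviation of each gene from the mean of its strain (log2 units, y axis) in each culture (x axis), filled for genes with 6 values and open for genes with 5. MDH2 and MAE1 above and FUM1 and MLS1 below stand out in wild type replicate 3, and CIT1 stands out below in 59A PDR8-S288c replicate 2.

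Isoenzymes, partner subunits and the glyoxylate cycle enzymes ICL1 and MLS1 were then compared within each culture. The signal of a gene was subtracted from that of its partner, and the difference was compared between strains. A comparison of this kind removes what both genes share in a culture. Signals of different probes have no common scale, so the value within a culture has no meaning by itself and is read only against the other strain. The 15 pairs were tested with two-sided exact permutation tests, which cannot give a p below 0.1 with these numbers of cultures, and the smallest p after Benjamini-Hochberg adjustment over the 15 was 0.375. The strains did not overlap for 6 pairs and overlapped for 9. They did not overlap for 1 of the 3 pairs with 6 values and for 5 of the 12 pairs with 5 values, and of single features 24.6% with 6 values and 35.0% with 5 did not overlap. Several pairs share a gene and so are not separate observations.

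The pair with the widest gap between strains was IDP1 and IDP3. IDP1 minus IDP3 was 3.21 and 2.98 in wild type, against 3.57, 3.38 and 3.36 in 59A PDR8-S288c, and all values of the latter lay above wild type by 0.34 on average. IDP1 minus IDP2 was 3.34, 3.16 and 3.38 in wild type, against 3.58, 3.51 and 3.54 in 59A PDR8-S288c, a difference of 0.25. IDP1 minus IDP2 was complete in all 6 cultures, and wild type replicate 3, which overlapped the other strain for IDP1 alone, did not overlap it here. IDP1 takes part in both differences, so they are not separate observations, while IDP2 minus IDP3 overlapped and differed by 0.05.

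IDH1 minus IDH2 was 0.50 and 0.44 in wild type, against 0.77, 0.69 and 0.60 in 59A PDR8-S288c. Its strains did not overlap, and the difference was 0.22. PYC1 minus PYC2 was 1.39 and 1.29 in wild type, against 1.42, 1.47 and 1.40 in 59A PDR8-S288c, a difference of 0.09, although the nearest values of both strains, 1.39 and 1.40, almost touched and the difference was 0.03 without wild type replicate 2. Each of the 4 pairs IDP1 and IDP3, IDP1 and IDP2, IDH1 and IDH2, and PYC1 and PYC2 had an exact permutation p of 0.1, the smallest possible.

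The other 2 pairs without overlap lay below wild type. LSC1 minus LSC2 was 0.67 and 0.71 in wild type, against 0.61, 0.45 and 0.62 in 59A PDR8-S288c, a difference of -0.13 (exact permutation p = 0.2). MDH1 minus MDH2 was 2.78 and 2.73 in wild type, against 2.73, 2.59 and 2.73 in 59A PDR8-S288c, so that its strains touched at the printed precision (difference -0.08, exact permutation p = 0.4).

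The citrate synthases and the enzymes of the glyoxylate cycle overlapped. CIT1 minus CIT2 was 1.64 and 1.37 in wild type, against 1.71, 0.93 and 1.27 in 59A PDR8-S288c, a difference of -0.20 with the lowest value in the culture where CIT1 was lowest. Without that culture the difference was -0.01, and without wild type replicate 1 it was -0.06. ICL1 minus MLS1 was 0.17, 0.11 and 0.74 in wild type, against 0.37, 0.35 and 0.38 in 59A PDR8-S288c. Its strain difference was 0.02, and the 59A PDR8-S288c cultures lay together between wild type replicate 3 and the other wild type cultures. The difference was 0.23 without wild type replicate 3.

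**Figure D5:**
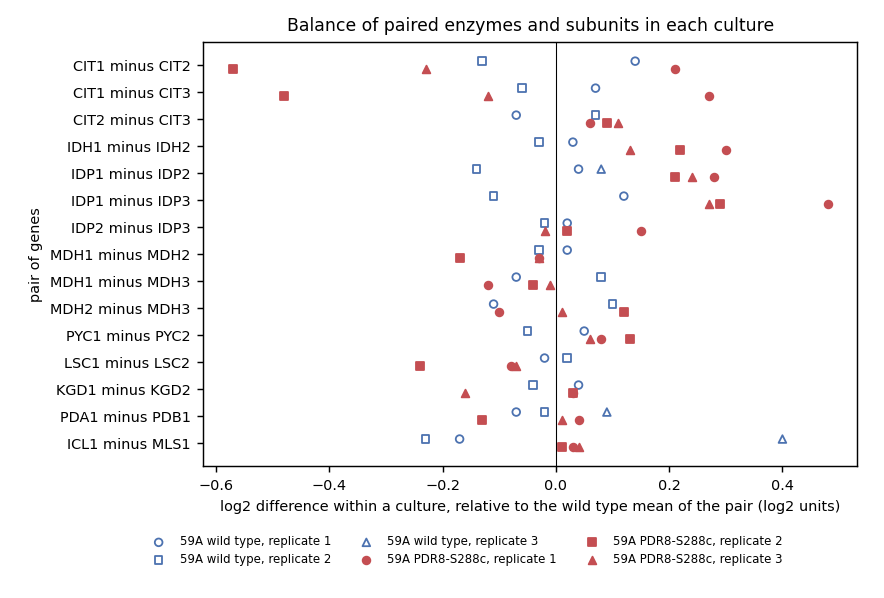
Log2 difference between paired genes within a culture, relative to the wild type mean of that pair (log2 units, x axis), for 15 pairs, with open blue symbols for 59A wild type and filled red symbols for 59A PDR8-S288c. The red symbols lie to the right of the blue ones for IDH1 minus IDH2, IDP1 minus IDP2, IDP1 minus IDP3 and PYC1 minus PYC2, and to the left for LSC1 minus LSC2.

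The neighbouring genes of these routes were also examined, as 10 textbook lists of 59 genes outside the 33, of which 54 were measured under a symbol of the array. None of the 54 passed an adjusted p under 0.05 in limma, where 1.54% of all features passed. At an unadjusted p under 0.05 there were 9, 5 above wild type and 4 below, where 18.1% of all features passed, 9.99% above and 8.1% below. Their median difference was 0.02, with 33 above 0 and 21 below. Of the 7 measured genes of succinate dehydrogenase and its assembly, which oxidise succinate between succinyl-CoA ligase and fumarase, 4 were above 0 and 3 below. The farthest from 0 was SDH7, an assembly factor named ACN9 on the array, at -0.16 (adjusted p = 0.291 from limma).

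The mitochondrial carriers, which move metabolites across the inner membrane, had 7 of 10 differences below 0, beside 47.0% of all features. At an unadjusted p under 0.05 in limma, 3 genes lay below wild type, beside 8.1% of all features. OAC1, an oxaloacetate carrier, read 7.63, 7.10 and 7.53 in wild type, against 7.19, 7.01 and 7.05 in 59A PDR8-S288c. Wild type replicate 2 lay among the 59A PDR8-S288c values, and the difference was -0.33 ± 0.13 (adjusted p = 0.243 from limma). CTP1, the citrate carrier, was chosen after its values were seen, as the neighbouring gene with the lowest adjusted p. It read 7.43, 7.46 and 7.55 in wild type, against 7.17, 7.21 and 7.29 in 59A PDR8-S288c, without overlap, and its difference was -0.26 ± 0.05 (adjusted p = 0.0645 from limma). Over the 15 alternatives its difference ran from -0.29 to -0.21. Its adjusted p was under 0.05 in limma only with a trended robust variance model (0.0487). That model also raised the count over all features from 96 to 152. MPC1, a subunit of the mitochondrial pyruvate carrier named FMP37 on the array and also chosen after its values were seen, had a difference of -0.26 (adjusted p = 0.12 from limma), and its strains did not overlap either.

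Among the 11 regulators of glucose repression and carbon source, 7 differences were above 0 and 4 below. At an unadjusted p under 0.05 in limma, 2 were above wild type and 1 below, beside 9.99% and 8.1% of all features. The strains did not overlap for 3 genes above wild type and 2 below. Of all features, 24.6% with 6 values and 35.0% with 5 did not overlap. HAP5, a DNA-binding subunit of the complex that HAP4 activates, read 7.90, 7.88 and 7.80 in wild type, against 8.03, 8.03 and 8.05 in 59A PDR8-S288c. The strains did not overlap, and the difference was 0.18 ± 0.04 (adjusted p = 0.0909 from limma). Its partner subunits HAP2 and HAP3, also named after their values were seen, had differences of 0.15 (adjusted p = 0.252 from limma) and -0.03. The genes below wild type without overlap, likewise named afterwards, were SNF4 and MIG2. Their differences were -0.15 (adjusted p = 0.206 from limma) and -0.16 (adjusted p = 0.311 from limma). The 4 retrograde regulators formed a separate list, with 3 differences above 0 and 1 below. At an unadjusted p under 0.05 in limma, 1 of them was above wild type, beside 9.99% of all features. This was RTG2, the sensor of the retrograde pathway that controls CIT2. RTG2 read 9.16, 9.18 and 9.10 in wild type, against 9.33, 9.25 and 9.35 in 59A PDR8-S288c. Its strains did not overlap, with a difference of 0.16 ± 0.05 (adjusted p = 0.129 from limma). RTG1, RTG3 and MKS1, also named after their values were seen, had differences of 0.06, 0.01 and -0.05, with overlapping strains.

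The GID complex is the ubiquitin ligase that marks FBP1 and other gluconeogenic enzymes for degradation when glucose returns. Its 8 measured genes had differences of 0.00 to 0.20, with a median of 0.06. All 8 were above 0 before rounding, beside 53.0% of all features. At an unadjusted p under 0.05 in limma, 2 were above wild type, beside 9.99% of all features. The strains did not overlap for 1 of the 8, beside 24.6% of all features with 6 values and 35.0% with 5. The farthest was GID8, at 0.20 ± 0.07 (adjusted p = 0.216 from limma), with overlapping strains. In the other 5 lists the gene farthest from 0 was OSM1 for fumarate reductases (0.03), KGD4 for other enzymes of the cycles (0.08), PKP1 for the kinases and phosphatases of pyruvate dehydrogenase (-0.09), YAT2 for carnitine acetyltransferases (0.06) and ADY2 for carboxylic acid transporters (0.03, with all signals near background). None of these 5 had an adjusted p under 0.498 in limma.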

How the data were processed

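Total RNA of each culture was labelled with Cy3 and hybridized to a 15k Agilent array, and all 6 arrays lay on 1 slide. The authors scanned the arrays on a GenePix scanner, normalized the median intensity of each spot by quantiles with limma under R 2.13.1, and the deposited result is on a log2 scale. Whether these 6 arrays were normalized together with the other arrays of the study is not given in the sources used here. Values were analysed as deposited with R 4.3.3 and limma 3.58.1 (lmFit and eBayes, strain as the single factor), with Benjamini-Hochberg adjustment over 6248 features. Missing values were not imputed. The brightest probe stood for each of the 22 genes with several probes. Figures were drawn with matplotlib 3.10.9. The fit was tested on simulated data. Replicate numbers are those of the sample titles. Replicates 1 and 2 of 59A PDR8-S288c are numbered the other way round in the descriptions. All 33 genes were named with their signals. PDB1 and ACS1, with an unadjusted p under 0.05 in limma, have difference, standard error, interval and adjusted p. HAP4 also has all of these. The other genes, isoenzymes among them, have only part of them. From each of the 10 neighbouring lists the gene with the largest difference was named, and further genes where the text says so. 6 of the 54 neighbouring genes were matched through an older symbol. The 33 genes and the lists were chosen with earlier results of these data known. Alternatives were other normalizations, variance models, array weights, probe rules, blocks, position on the slide and leaving out each culture. Promoter and protein sequences were not analysed here, and no coordinates are given because the files name no genome build.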

Additional observations from a re-analysis of the deposited data

How the results depend on the processing

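Under all 15 alternatives none of the 33 genes passed an adjusted p under 0.05 in limma, and the lowest adjusted p of any of them was 0.0794 (IDP1, without wild type replicate 3), followed by 0.0931 (ACS1, with array weights). Their median difference stayed between 0.02 and 0.06. The count over all features moved more, from 96 to 194 with array weights, 152 with a trended robust variance, 6 with position on the slide as a covariate, which leaves the strain difference to wild type replicate 1 alone, 13 without wild type replicate 1, 48 without 59A PDR8-S288c replicate 3 and 3 without any of wild type replicate 2 or 59A PDR8-S288c replicates 1 and 2. Of 493 values for single genes, 462 kept their sign and 31, from 12 genes whose differences were at most 0.12 in size, changed it. With position on the slide the difference was -0.02 for ACO1, -0.01 for FBP1, 0.01 for IDP2, 0.04 for KGD1, -0.02 for LAT1, 0.07 for MDH2, -0.08 for MLS1 and -0.01 for PYC1. With array weights it was -0.01 for ACO1, 0.03 for KGD1, 0.00 for LAT1 and -0.03 for MLS1. Median centring gave -0.01 for ACO1 and a further quantile normalization 0.00 for KGD1. Leaving out a culture at a time gave -0.03 to 0.03 for ACO1, -0.13 to 0.17 for CIT1, -0.04 to 0.07 for FBP1, -0.05 to 0.06 for KGD1, 0.00 to 0.04 for LAT1, -0.08 to 0.13 for LPD1, -0.09 to 0.04 for LSC1, -0.05 to 0.01 for MDH3, -0.10 to 0.12 for MLS1 and -0.01 to 0.12 for PYC1. Among the pairs it gave -0.30 to 0.07 for CIT1 minus CIT3, -0.09 to 0.23 for ICL1 minus MLS1, 0.00 to 0.08 for IDP2 minus IDP3, -0.08 to 0.03 for KGD1 minus KGD2, -0.14 to 0.01 for MDH1 minus MDH3, -0.09 to 0.11 for MDH2 minus MDH3 and -0.06 to 0.03 for PDA1 minus PDB1, and 6 to 9 pairs did not overlap. After a further quantile normalization 5 pairs did not overlap. The cause of these changes was not tested. With a limit of 0.5 in place of 1 log2 unit, 0 of the 33 genes were near background in both strains, instead of 1. Leaving out dim features removed CIT3 and PCK1. With a trended robust variance 1 of the neighbouring genes, CTP1, passed. Same-numbered cultures had correlations of 0.17, 0.34 and -0.43 between their deviations with title numbers and -0.05, -0.69 and -0.43 with description numbers. The -0.43 belongs to the replicate 3 cultures, which include wild type replicate 3 with its missing probes. So few correlations cannot decide whether replicate numbers pair the cultures. With the replicate number as a block, 0 of the 33 genes passed with either numbering, while the count over all features was 19 with title numbers and 3 with description numbers.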
